A study of Mus musculus with 6 samples.

Results

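The genes described here are the integrin subunits and laminin chains measured in mouse jejunal epithelium. Members were the array rows with a single gene symbol starting with Itga, Itgb, Lama, Lamb or Lamc. The β1 subunit, the αE subunit and genes named only for binding an integrin or resembling a laminin or integrin were left out. This gave 35 genes of the 19938 named genes: 17 integrin α subunits, 8 integrin β subunits and 10 laminin chains. The rule uses names alone. Of the 35, 22 lay above the dimmest 40% of all named genes by mean signal, and no gene was removed for low signal in what follows.

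Integrins are receptors made of an α and a β subunit that tie the cell to its surroundings. In epithelium the α6β4 integrin anchors the basal surface to laminin in the basement membrane and recruits hemidesmosome proteins, while αv subunits pair with several β subunits to bind ligands such as fibronectin, vitronectin and latent TGFβ. Laminins are the trimers of α, β and γ chains that form the sheet of the basement membrane, and leukocyte integrins such as those with the β2 or β7 subunit guide immune cells.

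The study measured total RNA of jejunal epithelial cell preparations on whole-transcript gene arrays. The 3 control mice carried R26-M2rtTA, a doxycycline-dependent activator expressed from the Rosa26 locus. The 3 transgenic mice carried R26-M2rtTA and a TRE-driven Musashi transgene, and all 6 mice, controls included, drank doxycycline for 24 h. Rosa26 is active in most cell types, so the activator was not restricted to the epithelium. The labels used here state neither age nor strain. The series text names the transgene TRE-Msi1, while the genotype label of the transgenic samples reads TRE-MSI2. On the arrays Msi1 was 6.94 ± 0.09 in controls and 12.60 ± 0.09 in transgenic arrays (mean log2 ± SD, n = 3 each). Msi2 was 8.64 ± 0.06 and 8.22 ± 0.30, so the libraries labelled transgenic carried the signal of Msi1.

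All values below are log2 RMA signals, so a difference of 1 is a doubling of signal. RMA as usually run corrects background, quantile-normalises and summarises per row, and no label gives the settings used. A member passed when its limma adjusted p over all 19938 genes was under 0.05, and rose or fell is written only of members that passed. Array medians were 6.27 to 6.34 over all rows, and 3 arrays a group limit the precision. An exact permutation test of a single gene, 3 arrays against 3, cannot go below p = 0.1. Transgenic replicate 1 stood apart, with correlations of 0.922 to 0.951 to the other arrays against 0.995 to 0.996 among controls and 0.996 between the other transgenic arrays. Of all genes 2368 passed with 6 arrays and 5700 without transgenic replicate 1. The epithelial markers Epcam, Cdh1, keratins, Vil1 and others had a mean of 11.26 to 11.29 in controls and 10.94 to 11.22 in transgenic arrays. Markers of stroma, endothelium, B cells, neutrophils and platelets had means of 4.88 to 6.23 on every array. Markers of T cells and intraepithelial lymphocytes had means of 7.47 to 7.63 in controls and 5.54 to 7.14 in transgenic arrays. Those lymphocyte markers thus had clear signal in controls and lower means on every transgenic array. Macrophage and dendritic cell markers had means of 6.003 to 6.019 in controls and 5.72 to 5.86 in transgenic arrays.

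Of the 35 integrin and laminin genes 5 passed, which is 14.3% beside 11.9% of all named genes. Itgav and Itgb6 rose, 2 genes beside 6.04% of all genes that rose. Itga1, Itgb4 and Lama3 fell, 3 genes beside 5.84% of all genes that fell. The members' median difference was -0.08 and that of all genes -0.04. For 14 members (40%) the groups did not overlap, beside 34.2% of all genes, and both shares of the family were near those of all genes. Without transgenic replicate 1, 5 members passed as higher and 6 as lower (31.4%), beside 28.6% of all genes, 14.0% higher and 14.5% lower. With any other array left out, Itgav and Itgb6 were again the 2 that rose. The count that fell was then 1 without control replicate 1, 2 without control replicate 2, control replicate 3 or transgenic replicate 2, and 3 without transgenic replicate 3. Those 3 were Itgb2, Itgb4 and Lama3, with Itgb2 in place of Itga1.

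**Figure D1:**
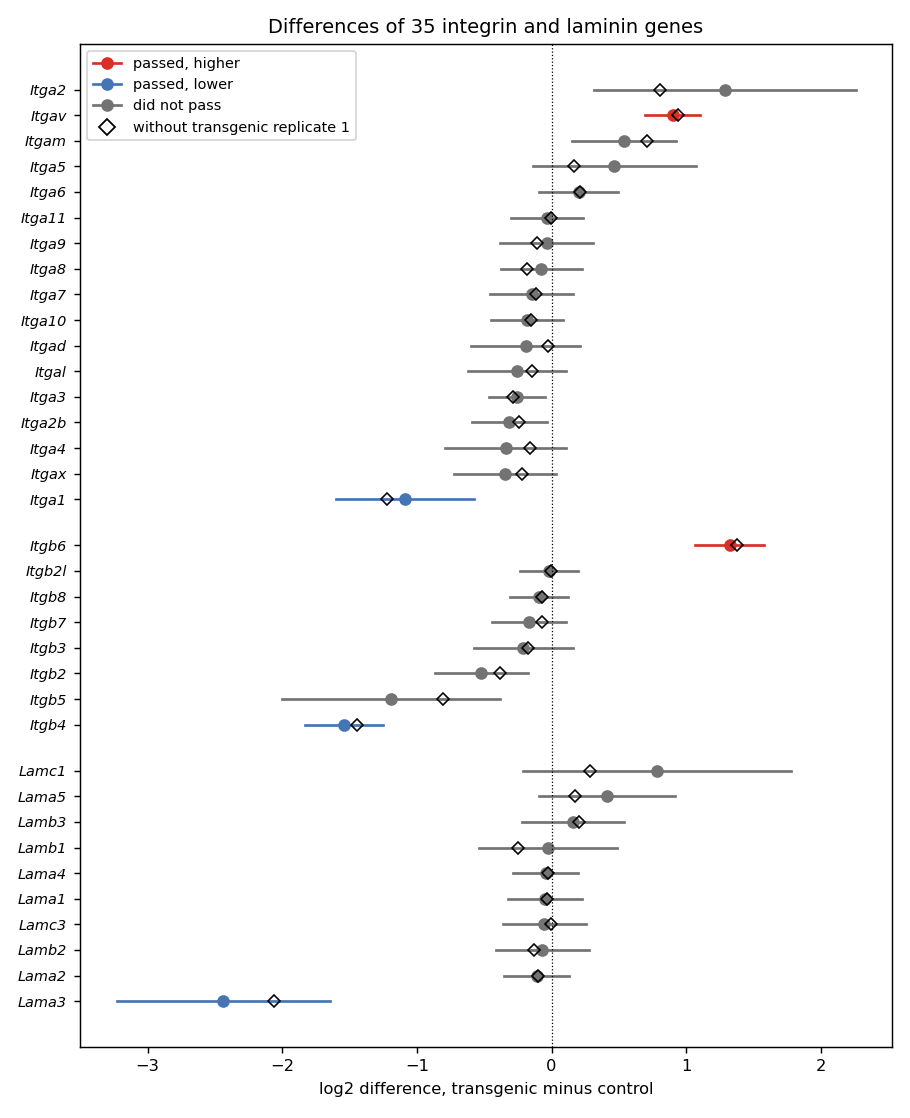
Differences in log2 signal, transgenic minus control, of the 35 genes (points) with 95% limma confidence intervals (lines), in blocks of α subunits, β subunits and laminin chains. Open diamonds give the difference on the 5 arrays without transgenic replicate 1. Red marks the rises of Itgav and Itgb6, blue the falls of Itga1, Itgb4 and Lama3, and grey the 30 members that did not pass.

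The αv subunit and its β6 partner rose together. Itgav, the α chain shared by the RGD-binding receptors, was 8.97, 8.81 and 8.89 in the controls and 9.72, 9.84 and 9.82 in the transgenic arrays. All 3 transgenic arrays lay above all controls and close to each other. The rise was 0.90 (SE 0.0840, limma adjusted p = 0.00316), or 1.87-fold. Itgb6, the epithelial β subunit that forms a receptor with αv and is known for activating latent TGFβ, was 8.61, 8.52 and 8.78 in the controls. In the transgenic arrays Itgb6 was 9.840, 10.032 and 10.002, again with no overlap. Its rise was 1.32 (SE 0.105, limma adjusted p = 0.00196), or 2.5-fold. Transgenic replicate 1 was the lowest transgenic array for each of the 2 genes, and without it the rises were 0.94 and 1.38. In RNA of a whole preparation, a change in the number of cells of a type and a change in RNA per cell cannot be told apart.

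Other β partners of αv did not pass as higher. Itgb5, which pairs with αv as a vitronectin receptor, was 9.53, 9.12 and 9.50 in the controls and 7.43, 8.56 and 8.58 in the transgenic arrays. The groups did not overlap, and transgenic replicate 1 was more than 1 log2 unit below the other 2. The difference of -1.19 (SE 0.333, limma adjusted p = 0.0759) did not pass. On the 5 arrays without transgenic replicate 1 Itgb5 passed as lower, by -0.81 (limma adjusted p = 0.00206). Itgb3, the β subunit of platelets and endothelium, and Itgb8, another partner known for TGFβ activation, differed by -0.21 and -0.10, did not pass and overlapped between groups. Both were among the dimmest 40% of genes, where a change would be hard to see. Within each array the log2 ratio of Itgb6 to Itgb5 was higher in the transgenic group by 2.51 (2.19 without transgenic replicate 1), with no overlap between groups. The ratio of Itgb6 to Itgav was higher by 0.42, and these groups did not overlap either.

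The sequences before the starts of Itgav and of its β6 and β5 partners are shown because β6 and β5 are alternative partners of αv: Itgav and Itgb6 rose, and Itgb5 was lower on every transgenic array without passing. Each is the 250 bases before the start in RefSeq on GRCm38.p6, 5′ to 3′ on the gene's strand, for Itgb6 the more upstream of 2 listed starts. Itgav lies at chr2:83724147-83724396 (+), Itgb6 at chr2:60722604-60722853 (-) and Itgb5 at chr16:33829415-33829664 (+). Capitals mark matches to the GC box GGGCGG on either strand.
Itgav: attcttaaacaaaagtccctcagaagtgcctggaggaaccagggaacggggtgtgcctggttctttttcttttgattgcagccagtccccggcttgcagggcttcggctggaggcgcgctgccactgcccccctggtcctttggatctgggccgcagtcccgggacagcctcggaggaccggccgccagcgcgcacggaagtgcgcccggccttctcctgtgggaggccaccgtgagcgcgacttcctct
Itgb6: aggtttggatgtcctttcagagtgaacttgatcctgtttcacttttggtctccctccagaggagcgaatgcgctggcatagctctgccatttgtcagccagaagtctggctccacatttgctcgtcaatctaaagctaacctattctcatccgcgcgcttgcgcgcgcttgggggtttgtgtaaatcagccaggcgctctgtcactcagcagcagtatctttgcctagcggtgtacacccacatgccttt
Itgb5: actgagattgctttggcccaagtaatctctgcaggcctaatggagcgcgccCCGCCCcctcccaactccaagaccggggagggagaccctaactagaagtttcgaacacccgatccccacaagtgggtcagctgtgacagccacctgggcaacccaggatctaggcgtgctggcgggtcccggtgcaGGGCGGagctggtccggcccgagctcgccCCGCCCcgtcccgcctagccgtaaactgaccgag
Itgb5 held 3 GC boxes and the other windows 0, while 32.7% of all 32851 windows of this length held at least 1. CCAAT (33.8% of windows), the TATA box TATAAA (12.4%), the AP-1 motif TGANTCA (6.75%) and the STAT motif TTCNNNGAA (7.02%), searched on both strands and with overlaps counted, had no match in any of the 3 windows. The windows had 64.4%, 52.0% and 65.2% G and C, with 18, 11 and 18 CG dinucleotides, against medians of 52.4% and 6 over all windows. These are descriptions of letters in these windows, and 23 of the 35 members had a window in the table.

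**Figure D2:**
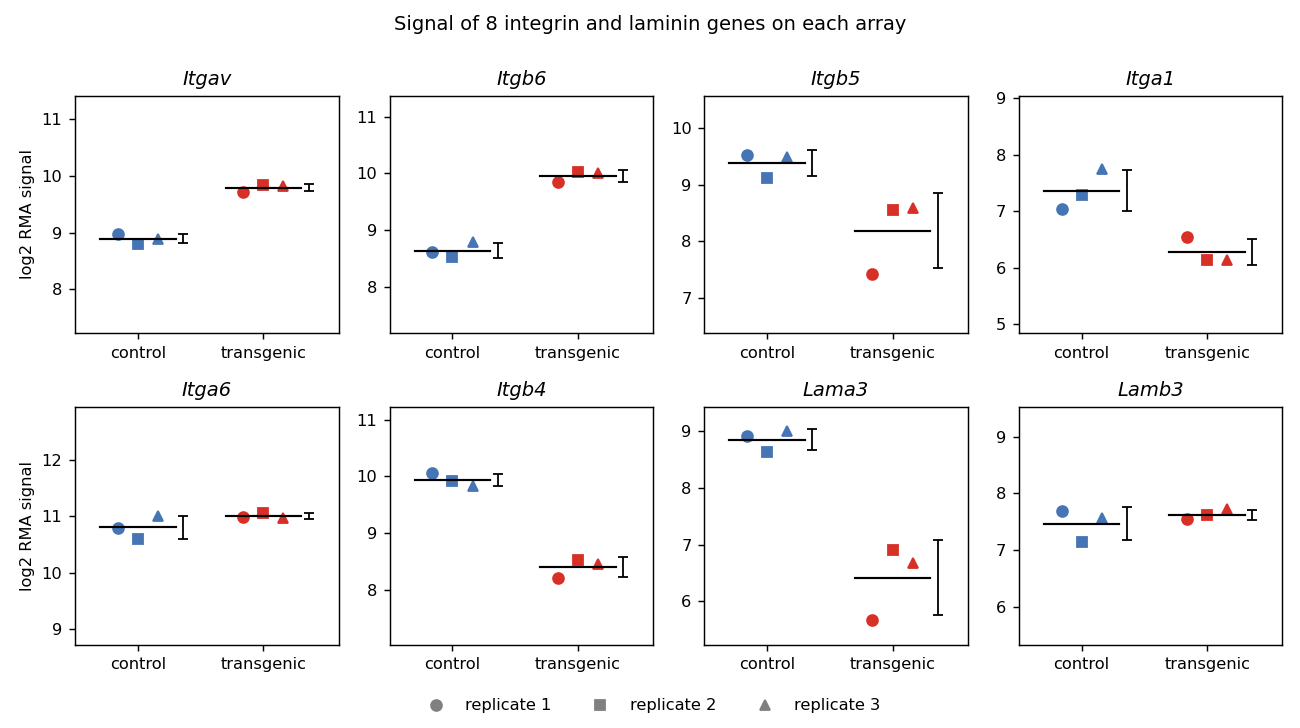
Log2 RMA signal of 8 members on each array, with replicates 1, 2 and 3 as circle, square and triangle, the group mean as a line and 1 SD as a bar (n = 3). Panels span the same number of log2 units and start at different levels. Itgav and Itgb6 are higher on all 3 transgenic arrays, Itgb4, Lama3, Itgb5 and Itga1 lower, and Itga6 and Lamb3 overlap.

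The β4 subunit fell, while its α6 partner did not pass. Itgb4, which pairs only with α6 and carries the long cytoplasmic tail that binds plectin in hemidesmosomes, was 10.06, 9.91 and 9.84 in the controls. It was 8.20, 8.53 and 8.46 in the transgenic arrays, all more than 1 log2 unit below the lowest control. The difference was -1.54 (SE 0.119, limma adjusted p = 0.00185), or 2.91-fold lower, and -1.44 without transgenic replicate 1. Itga6, the laminin-binding α subunit, was 10.80, 10.60 and 11.01 in the controls and 10.98, 11.06 and 10.97 in the transgenic arrays. The Itga6 groups overlapped and the difference of 0.20 (95% confidence interval -0.09 to 0.49) did not pass. The log2 ratio of Itgb4 to Itga6 within an array changed by -1.74 (-1.66 without transgenic replicate 1), with no overlap between groups.

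Among other α subunits that bind laminin or collagen, Itga3 and Itga2 did not pass with all arrays and passed without transgenic replicate 1, as lower and as higher. Itga3, a laminin receptor subunit of epithelia, was 9.93, 9.90 and 10.04 in controls and 9.76, 9.61 and 9.73 in transgenic arrays. The Itga3 groups did not overlap, but the difference of -0.26 did not pass (limma adjusted p = 0.119), and it passed without transgenic replicate 1 (-0.29, limma adjusted p = 0.0430). Itga2, a collagen and laminin receptor subunit, was 8.80, 8.65 and 9.02 in controls and 11.06, 9.66 and 9.60 in transgenic arrays. All transgenic values of Itga2 were above the controls, with transgenic replicate 1 far above the other 2. The difference of 1.29 (SE 0.40) did not pass (limma adjusted p = 0.102), while without transgenic replicate 1 Itga2 passed as higher, by 0.81 (limma adjusted p = 0.00111).

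Itga1, the collagen receptor subunit that marks many intraepithelial lymphocytes and mesenchymal cells, fell. Its values were 7.04, 7.30 and 7.75 in the controls and 6.55, 6.15 and 6.14 in the transgenic arrays, with no overlap. The difference was -1.09 (SE 0.211, limma adjusted p = 0.0253), or 2.13-fold lower, and -1.22 without transgenic replicate 1 (limma adjusted p = 0.00130). The call was lost when any other array was left out: without control replicate 1, 2 or 3 the differences were -1.25, -1.12 and -0.89, without transgenic replicate 2 or 3 they were -1.02 and -1.02, and limma adjusted p was 0.0503 to 0.0990. Of 15 measured markers of T cells and intraepithelial lymphocytes 3 fell and 0 rose, and 9 passed as lower without transgenic replicate 1, beside 5.84% and 14.5% of all genes that were lower. Their summed signal was 12.29 to 12.63 on the log2 scale in controls and 9.56 to 11.88 in transgenic arrays. Among defining markers, Cd3e was 8.79, 9.10 and 9.18 in controls and 6.61, 8.42 and 8.68 in transgenic arrays, and did not pass (limma adjusted p = 0.274). Cd3d, another CD3 chain, overlapped between groups, as did Cd2, Cd5 and Klrd1, and the other markers did not. The 3 that fell, Cd8b1, Xcl1 and Cd69, were among the dimmest 40% of genes. On transgenic replicate 1 the 15 markers had their lowest mean (5.54, with 7.11 on transgenic replicate 2 and 7.14 on transgenic replicate 3). Itga1 there was the highest of the 3 transgenic arrays. The part of these cells in the fall of Itga1 was not tested. Fibroblast markers had 0 of 13 passing, beside 11.9% of all genes, and their means overlapped between groups (6.084 to 6.176 and 5.999 to 6.230). Smooth muscle markers had 1 of 9 falling, beside 5.84% of all genes, and their means overlapped (6.01 to 6.11 and 5.91 to 6.07). Their summed signal was 9.66 to 9.71 in controls and 9.41 to 9.48 in transgenic arrays, without overlap. Endothelial markers had 0 of 12 passing, beside 11.9% of all genes. Their means were 5.67 to 5.71 in controls and 5.51 to 5.64 in transgenic arrays, without overlap. The summed signal of the endothelial markers was 9.36 to 9.43 and 9.20 to 9.33, also without overlap. The part of these cells was not tested either.

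Itga1 and Itga2 follow each other on chromosome 13 among protein-coding genes in the RefSeq table. The ratio of Itga2 to Itga1 within an array was higher in the transgenic group by 2.37 (2.03 without transgenic replicate 1), with no overlap. Itgam, Itgax and Itgad are the other members that lie next to each other, on chromosome 7, and differed by 0.54, -0.34 and -0.19.

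Of the laminin chains 1 of 10 fell and 0 rose, beside 5.84% and 6.04% of all genes. Lama3, the α chain of the epithelial laminin that α6β4 and α3 integrins bind, was 8.925, 8.642 and 9.001 in the controls and 5.67, 6.91 and 6.67 in the transgenic arrays. Every transgenic array was more than 1 log2 unit below every control, and transgenic replicate 1 was the lowest. The difference was -2.44 (SE 0.326, limma adjusted p = 0.00825), or 5.42-fold lower, and it was -2.06 without transgenic replicate 1 (limma adjusted p = 2e-05). Without control replicate 1 the difference was -2.40 with a limma adjusted p of 0.0502. Lamb3, the β chain that joins Lama3 in that trimer, was 7.69, 7.14 and 7.56 in controls and 7.54, 7.62 and 7.72 in transgenic arrays. The Lamb3 groups overlapped, and the difference of 0.16 (95% confidence interval -0.22 to 0.54) did not pass. Within an array the ratio of Lama3 to Lamb3 changed by -2.60 (-2.27 without transgenic replicate 1), with no overlap.

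**Figure D3:**
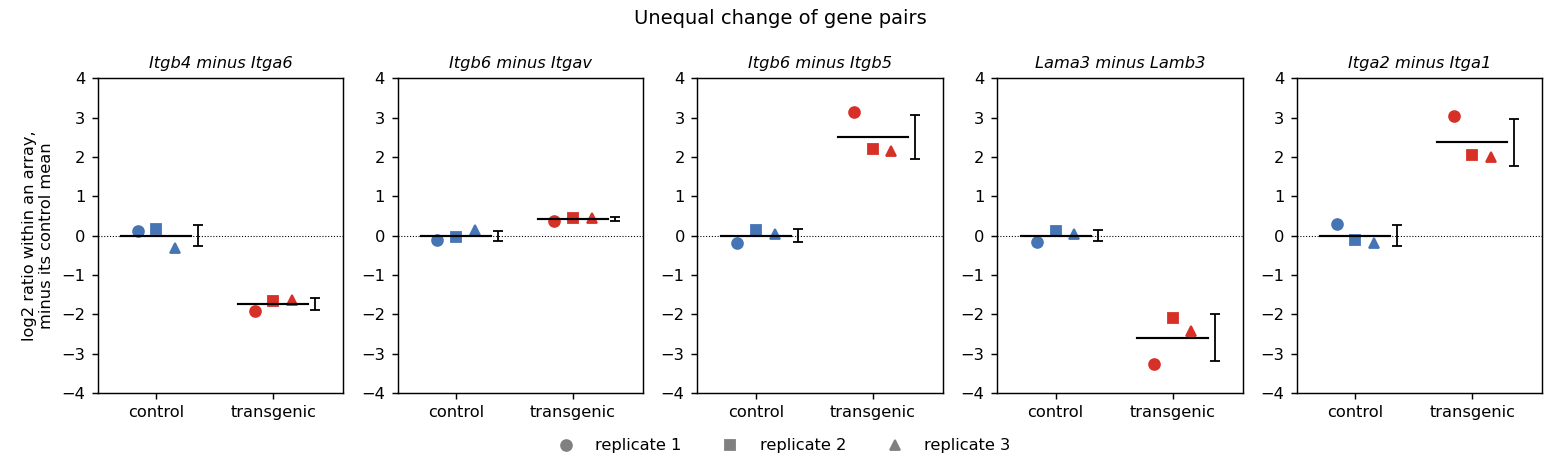
Log2 ratio of 2 genes within each array, minus its mean over the controls, for 5 pairs (symbols as replicate 1 circle, 2 square, 3 triangle, line for the mean, bar for 1 SD, n = 3). The groups do not overlap in any of the 5 pairs, with mean changes from -2.60 for Lama3 to Lamb3 to 2.51 for Itgb6 to Itgb5. A ratio within an array shows unequal change and not which gene changed.

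These 5 ratios were chosen with the values known. Itgb6 and Itgb5, like Itga2 and Itga1, each had no overlap between groups and differed in opposite directions. The ratios of those genes therefore could not overlap. The exact two-sided permutation test gave each of the 5 ratios its smallest possible p of 0.1, and 0.1 after Benjamini-Hochberg adjustment over the 5. That adjustment does not count pairs that were not chosen.

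The chains of the widespread laminins of the basement membrane did not pass with all arrays. Lamc1, the γ chain of most laminins, was 6.45, 6.54 and 6.49 in controls and 8.27, 6.73 and 6.83 in transgenic arrays. Its transgenic values were all above the controls, mostly through transgenic replicate 1, and the difference of 0.78 (SE 0.408, limma adjusted p = 0.315) became 0.29 without that array and passed (limma adjusted p = 0.0337). Lama5, the α chain of the main laminin of the adult villus basement membrane, was 6.47, 6.52 and 6.54 in controls and 7.40, 6.62 and 6.74 in transgenic arrays. The Lama5 groups did not overlap, with transgenic replicate 1 again the highest array, and its difference of 0.41 did not pass with or without transgenic replicate 1 (limma adjusted p = 0.295 and 0.182). Lamb2, a β chain of basement membranes, was 6.62, 6.67 and 6.73 in controls and 6.72, 6.30 and 6.78 in transgenic arrays, and the groups overlapped. Lamb1, a widespread β chain, and Lama1, Lama2, Lama4 and Lamc3 differed by -0.11 to -0.03 and overlapped between groups. Lama1, Lama2, Lama4 and Lamb1 were among the dimmest 40% of genes.

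Leukocyte integrins did not pass with all arrays. Itgb2, the β subunit shared by leukocyte integrins, was 6.499, 6.444 and 6.511 in controls and 5.681, 6.003 and 6.208 in transgenic arrays. All transgenic values of Itgb2 lay below the controls, and the difference of -0.52 had a limma adjusted p of 0.0717. It passed without transgenic replicate 1 (-0.38, limma adjusted p = 0.0152) and without transgenic replicate 3 (-0.64, limma adjusted p = 0.0438). Itgam, the α subunit of the complement receptor of myeloid cells, was 6.498, 6.495 and 6.527 in controls and 6.70, 7.14 and 7.29 in transgenic arrays. Every transgenic value of Itgam was above the controls, and the difference of 0.54 (limma adjusted p = 0.0891) passed as higher without transgenic replicate 1 (0.71, limma adjusted p = 4.77e-04). Itgal, Itgax and Itgad, further partners of β2, and Itga4 and Itgb7, which together form a homing receptor for the gut, differed by -0.34 to -0.17, did not pass and overlapped. Of these Itgal and Itgax were among the dimmest 40% of genes. A second row of Itgad differed by -0.40 and did not pass among all rows (limma adjusted p = 0.102).

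Myeloid markers were measured beside these genes. Of 15 macrophage and dendritic cell markers 1 rose and 0 fell, beside 6.04% and 5.84% of all genes. The rise was that of Cd14 (1.06, limma adjusted p = 0.0119), a call lost without control replicate 1 and without control replicate 2 (largest adjusted p 0.0652). The mean of the 15 markers was 6.003 to 6.019 in controls and 5.72 to 5.86 in transgenic arrays, and their summed signal was 10.65 to 10.85 and 10.10 to 10.71. Without transgenic replicate 1, 1 passed as higher and 3 as lower, beside 14.0% and 14.5% of all genes. Of 11 neutrophil markers 0 passed with or without that array, beside 11.9% and 28.6% of all genes. The summed signal of the neutrophil markers was 8.69 to 8.85 in controls and 8.63 to 8.87 in transgenic arrays. The T cell and intraepithelial lymphocyte markers given beside Itga1, cells that also carry β2, had a median difference of -0.55, beside -0.04 for all genes. For 73.3% of these markers the groups did not overlap, beside 34.2% of all genes. They were lowest on transgenic replicate 1, as was Itgb2. The part of any of these cells in the values of Itgb2 and Itgam was not tested.

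The remaining α subunits are known mainly from mesenchyme, muscle, platelets and endothelium. Itga5, the fibronectin receptor subunit, was 5.77, 5.73 and 5.79 in controls and 6.82, 5.94 and 5.93 in transgenic arrays, high on transgenic replicate 1, and its difference of 0.47 did not pass (limma adjusted p = 0.330). Itga2b, the platelet α subunit, differed by -0.31 with no overlap and did not pass (limma adjusted p = 0.150). Of 5 measured platelet markers 0 passed, beside 11.9% of all genes. Itga7, Itga8, Itga9, Itga10 and Itga11 differed by -0.18 to -0.04 and overlapped between groups. Itga5, Itga7, Itga8, Itga9 and Itga11 were among the dimmest 40% of genes. Itgb2l, a paralog of Itgb2, differed by -0.02 and overlapped.

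**Figure D4:**
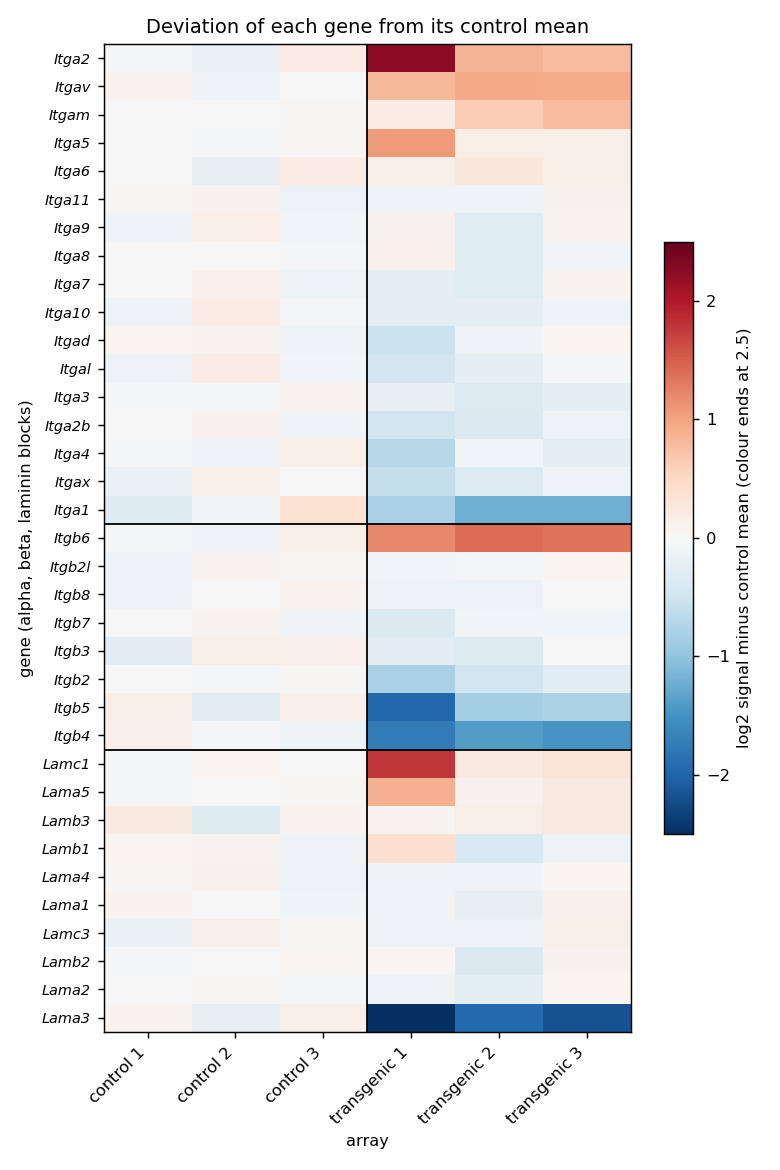
Log2 signal minus the control mean of each of the 35 genes (rows, in blocks of α subunits, β subunits and laminin chains) on each array (columns), red for higher and blue for lower, with the colour ending at 2.5. Itgav, Itgb6, Itgb4 and Lama3 keep their direction on all 3 transgenic arrays. Itga2, Itga5, Lamc1 and Lama5 do so too, and are highest on transgenic replicate 1. The groups do not overlap for 14 of the 35 genes (40%), beside 34.2% of all genes.

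Relative to the other transgenic arrays, the members that deviated most on transgenic replicate 1 were Itga2, Lamc1, Itga5 and Lama5 upwards and Itgb5 and Lama3 downwards. Enterocyte markers of the villus tip were also lowest there, with a mean of 9.02. The remaining transgenic arrays had 11.47 and 11.42, and the controls 11.87 to 11.99. Of these 10 markers 0 passed with all arrays by limma, beside 11.9% of all genes. Without transgenic replicate 1, 5 of them passed as lower, beside 14.5% of all genes. Their summed signal was 15.43 to 15.55 in controls and 13.39 to 15.23 in transgenic arrays. Crypt markers had a mean of 8.91 on transgenic replicate 1, 7.86 on replicate 2, 7.80 on replicate 3 and 8.68 to 8.89 in controls. Of 9 measured crypt markers 2 fell with all arrays and 7 passed as lower without transgenic replicate 1, beside 5.84% and 14.5% of all genes. Their summed signal was 12.53 to 12.81 in controls and 11.20 to 12.55 in transgenic arrays. Itgav, Itgb6 and Itgb4 differed by 0.94, 1.38 and -1.44 without transgenic replicate 1, against 0.90, 1.32 and -1.54 with it. The part of cell makeup in the values of these 3 genes and of the other members was not tested.

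**Figure D5:**
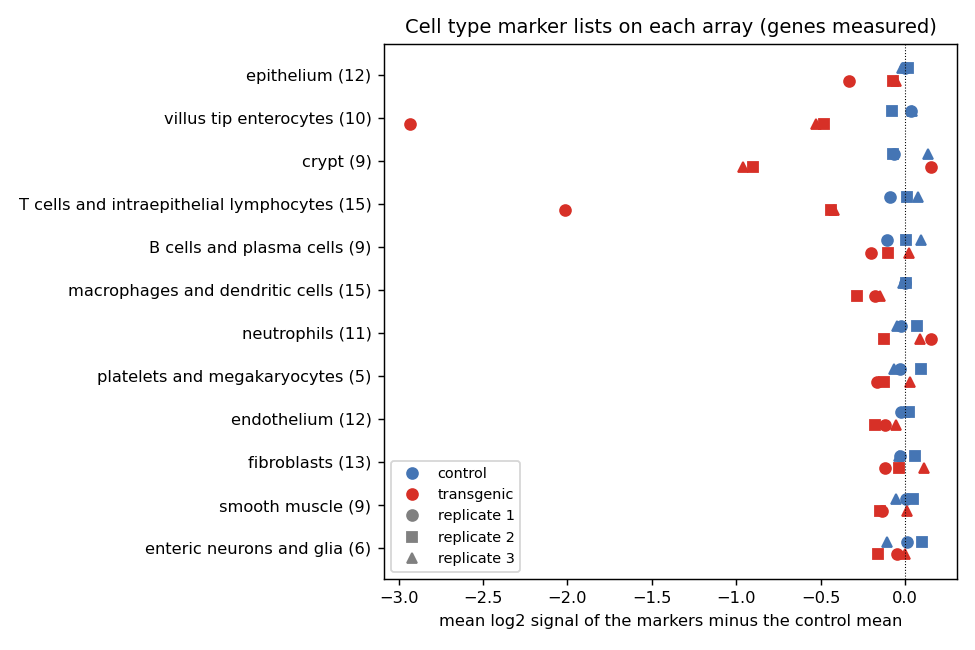
Mean log2 signal of 12 cell type marker lists on each array, minus the control mean of that list (blue for control, red for transgenic, symbols for replicates, number of genes measured in brackets). Villus tip and T cell markers are lowest on transgenic replicate 1, crypt markers are low on transgenic replicates 2 and 3, and the stromal, endothelial, B cell, neutrophil and platelet lists lie near 0.

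Other basement membrane genes were counted from a list of 22, all measured. Of these 3 fell and 0 rose (13.6%), beside 11.9% of all genes that passed, 5.84% lower and 6.04% higher. Their median was -0.08 beside -0.04 for all genes. Agrn, the heparan sulfate proteoglycan agrin that binds laminin, was 9.42, 9.17 and 9.12 in controls and 7.15, 7.74 and 7.77 in transgenic arrays, a fall of -1.68 (SE 0.191, limma adjusted p = 0.00520). All transgenic arrays lay below the controls, as they did for Hspg2 (perlecan) and Fras1 (an extracellular matrix protein of epithelial basement membranes). Hspg2 differed by -0.47 and Fras1 by -0.60 (limma adjusted p = 0.0292 and 0.0318). Leaving out a control or transgenic replicate 2 ended both calls, the largest adjusted p being 0.130 and 0.135. Without transgenic replicate 1, 4 genes of the list passed as lower and 0 as higher (18.2%), beside 28.6% of all genes.

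Hemidesmosome proteins and further laminin receptors numbered 13, of which 2 fell and 0 rose (15.4%, beside 11.9% of all genes), with a median of -0.09. Dag1, the dystroglycan gene, whose product binds laminin and agrin, was 10.36, 10.38 and 10.28 in controls and 9.43, 9.61 and 9.67 in transgenic arrays. It fell by 0.77 (SE 0.0942, limma adjusted p = 0.00629). Cd81, a tetraspanin that associates with integrins, differed by -0.70 (limma adjusted p = 0.00740). Sdc4, the heparan sulfate proteoglycan syndecan-4, did not pass (limma adjusted p = 0.122) and passed as lower without transgenic replicate 1 (-0.37, limma adjusted p = 0.0109). Plec, which binds β4 in the hemidesmosome, differed by -0.20 and did not pass (limma adjusted p = 0.375). Without transgenic replicate 1, 3 passed as lower and 0 as higher (23.1%), beside 28.6% of all genes.

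Integrin activators and adhesion plaque proteins had 28 of 30 genes measured, with 1 rise and 1 fall (7.14%, beside 11.9% of all genes) and a median of -0.20. Crk, an adaptor downstream of integrins, was 10.03, 9.90 and 9.96 in controls and 10.80, 10.88 and 10.82 in transgenic arrays. All its transgenic values lay above the controls, a rise of 0.87 (SE 0.0779, limma adjusted p = 0.00284). Zyx, the focal adhesion protein zyxin, fell by 0.46 (limma adjusted p = 0.0274), a call that was kept only without transgenic replicate 1 (up to 0.103 with any other array left out). Vcl, the vinculin gene, and Fermt1, the epithelial kindlin that activates β subunits, differed by 0.39 and -0.67 and did not pass (limma adjusted p = 0.0669 and 0.0838). Without transgenic replicate 1, 4 passed as higher and 7 as lower (39.3%, beside 28.6% of all genes), Fermt1 among the latter (-0.89, limma adjusted p = 1.96e-04).

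Other integrin ligands had 23 of 25 genes measured, of which 2 rose and 1 fell (13.0%, beside 11.9% of all genes), with a median of 0.00. Adam15, a metalloproteinase with an integrin-binding domain, fell by 0.63 (limma adjusted p = 0.0123). Mfge8, a ligand of αv integrins, rose by 0.45 (limma adjusted p = 0.0266), and Cdh1, the E-cadherin gene, rose by 0.34 (limma adjusted p = 0.0415). Leaving out any 1 control ended each of the 3 calls. Leaving out transgenic replicate 3 also ended those of Mfge8 and Cdh1, and leaving out transgenic replicate 2 that of Cdh1. The largest adjusted p was 0.0687 for Adam15, 0.126 for Mfge8 and 0.161 for Cdh1. On the 5 arrays without transgenic replicate 1, 5 passed as higher and 1 as lower (26.1%, beside 28.6% of all genes).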

How the data were processed

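Total RNA of jejunal epithelial cells was hybridised to Affymetrix Gene 1.0ST arrays (250 ng each, per the labels' protocols). The deposited values are log2 signals, and the submitters' processing notes name RMA and Partek 6.5; no label gives their settings. Quantile normalization, a step of RMA as usually run, hides a change in total RNA per cell. The table held 35399 rows (2.41 to 13.5): 21789 had 1 gene symbol in the platform annotation, 1621 several and 11989 none. Of the former, 21698 matched RefSeq GRCm38.p6 by Entrez ID and 0 changed symbol. The row with the highest mean over 6 arrays stood for a gene.

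Transgenic and control arrays (3 each, from separate animals per the series text) were compared with limma 3.58.1 in R 4.3.3 (lmFit, eBayes). Benjamini-Hochberg adjustment was over 19938 genes, and all limma adjusted p-values come from this fit. The fit was tested on simulated data with independent arrays of equal spread for a gene. That simulation held no outlying array, so it does not cover the case of transgenic replicate 1. Members and the gene lists were chosen with earlier results of these data known. Values on every array are given for members that passed with 6 arrays or without transgenic replicate 1 and for epithelial laminin receptors and chains; partner lists are shown by up to 4 genes of smallest p. Itga5's values on every array were added after they were seen. Alternatives were 2 scalings, a filter on dim genes, 2 replicate blocks, weights per array, a robust fit with a trend, averaging the rows of a gene, and each array left out.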

Additional observations from a re-analysis of the deposited data

How the results depend on the processing

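Under the 14 alternatives Itgav (0.86 to 0.98), Itgb6 (1.26 to 1.40) and Itgb4 (-1.61 to -1.38) kept their direction and their call, with limma adjusted p up to 0.0389, 0.0232 and 0.0250. Lama3 (-2.68 to -2.03) lost its call only without control replicate 1. Itga1 (-1.38 to -0.89) lost it with any array but transgenic replicate 1 left out and under the title block (adjusted p = 0.0820). Deviations from the group mean correlated at -0.0696, -0.168 and -0.122 between arrays of equal title number. Between arrays of unlike title number they correlated at -0.0225 to 0.153. The pairs at -0.168 and -0.122 also share a description number. Deviations of 3 arrays within a group depend on each other, so these values cannot decide whether the title numbers pair the samples. With the replicate block by title number 733 genes of all genes passed, 2 members rose and 2 fell, and 2 genes of the partner lists passed. The replicate block by description number, in which the unpaired arrays (control and transgenic replicate 1) carry no weight in the contrast, gave 4019 genes, 4 members higher and 4 lower, and 14 partner genes. Array weights gave 5770 genes, 4 members higher, 7 lower and 24 partner genes. With each array left out in turn the counts were 683 to 5700 for all genes (2368 with all arrays), 2 to 5 for members higher, 1 to 6 for members lower and 4 to 24 for partner genes (10 with all arrays). Quantile normalization again, equal medians, removal of the dimmest genes, a robust fit with a trend and averaging the rows of a gene left the 2 rises and 3 falls as they were.

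Members near 0 changed sign without passing. Equal array medians gave 0.0038 for Itga11, 0.0034 for Itga9, 0.019 for Itgb2l and 0.014 for Lamb1; the description block gave 0.016 for Itga11, 0.0033 for Itgad and 0.011 for Lama1. Itgb2l was 0.011 with array weights and 0.018 after quantile normalization. With 1 array left out the ranges were -0.111 to 0.0219 for Itga11, -0.180 to 0.0360 for Itga8, -0.105 to 0.0940 for Itga9, -0.0759 to 0.0167 for Itgb2l, -0.139 to 0.0261 for Lama1, -0.116 to 0.0135 for Lama4, -0.252 to 0.152 for Lamb1, -0.159 to 0.0816 for Lamb2, -7.45e-04 to 0.274 for Lamb3 and -0.153 to 0.0139 for Lamc3. The cause of these changes was not tested.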
